A study of Mus musculus with 12 samples.

Results

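The 36 genes described here are known mainly from astrocytes, the star-shaped glial cells that tile the grey matter of the brain. They form a list of gene names that uses no measured value, although the list was drawn up with earlier results of these data known, and all 36 were found among the 28842 genes of the deposited table. Each had at least 28 reads in every library, so none was at or near 0, and 35 of the 36 were abundant enough to be tested.

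Astrocytes take up the glutamate and GABA that neurons release, turn glutamate into glutamine for return to neurons, and buffer water, potassium and acid around synapses. They are joined to each other by gap junctions and send end-feet to blood vessels. They also store the glycogen of the brain, secrete the lipoproteins that carry cholesterol to neurons, and raise the intermediate filament protein GFAP when they react to injury. Several of the genes are not made by astrocytes alone: microglia also make Apoe and Cst3, and oligodendrocytes, the cells that form myelin, also make S100b and Glul.

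RNA was sequenced from prefrontal cortex of wild-type male C57BL/6J mice, 12 libraries in all. The saline group (6 libraries) received saline and the cocaine group (6 libraries) received cocaine at 15 mg/kg over postnatal days 28 to 42, which is adolescence in the mouse. Both groups then shared the same adult procedure: a pre-test on day 75, place preference training with 1 mg/kg cocaine on days 76 and 77, and a test on day 78, after which the tissue was collected. Such conditioned preference measures how much an animal favours a place where it had received a drug. The comparison is therefore of adolescent exposure in adults that had all had cocaine. Nothing in the labels ties a library to its own mouse; p-values then measure only how these libraries vary, which may be technical. The labels also name a mesenchymal cell line and a time tag of day 0 or day 5, neither of which matches this tissue; excitatory neuron markers summed to between 1591 and 2322 FPKM per library.

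Libraries held 16.7 to 19.9 M reads, and mitochondrial transcripts took 3.24 to 5.43 percent of them. Library saline 5 stood apart in choroid plexus RNA: Ttr, the main secreted protein of choroid plexus, had 11208 normalised reads there and at most 13.2 in any other library. Libraries also differed widely in myelin genes. The summed level of 12 myelinating oligodendrocyte markers ran from 356 to 2641 FPKM over saline and from 539 to 2190 FPKM over cocaine libraries, so the groups overlapped.

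Levels per gene length are given as FPKM, fragments scaled by gene length and library size, computed here from the deposited values; all other levels are normalised read counts, the deposited values, which cannot be compared between genes. The astrocyte genes covered almost 3 orders of magnitude. Cst3, an inhibitor of cysteine proteases, stood highest at a mean of 657 FPKM, followed by the lipid carrier Apoe at 558 FPKM and by glutamine synthetase (Glul) at 338 FPKM. Cst3 and Apoe overlapped between libraries, at 666 ± 199 and 570 ± 154 FPKM in the saline group (SD, n = 6). The chaperone-like secreted protein Clu (176 FPKM), the main glutamate transporter Slc1a2 (137 FPKM) and Ndrg2 (122 FPKM) came next.

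At the low end stood Plcd4, a phospholipase, at 0.913 FPKM, below the minimum mean of 1 FPKM used for testing. Just above that minimum was Agt, the precursor of angiotensin, at 1.34 FPKM, and then Entpd2, an enzyme that breaks down extracellular ATP, at 2.88 FPKM. Gfap itself was of middling abundance at 18.6 FPKM, and Aldh1l1, a folate enzyme often used to mark all astrocytes, was at 8.05 FPKM. Plcd4 averaged 115 ± 16.7 normalised reads in the saline and 112 ± 15.8 in the cocaine group (SD, n = 6) and was not tested.

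**Figure D1:**
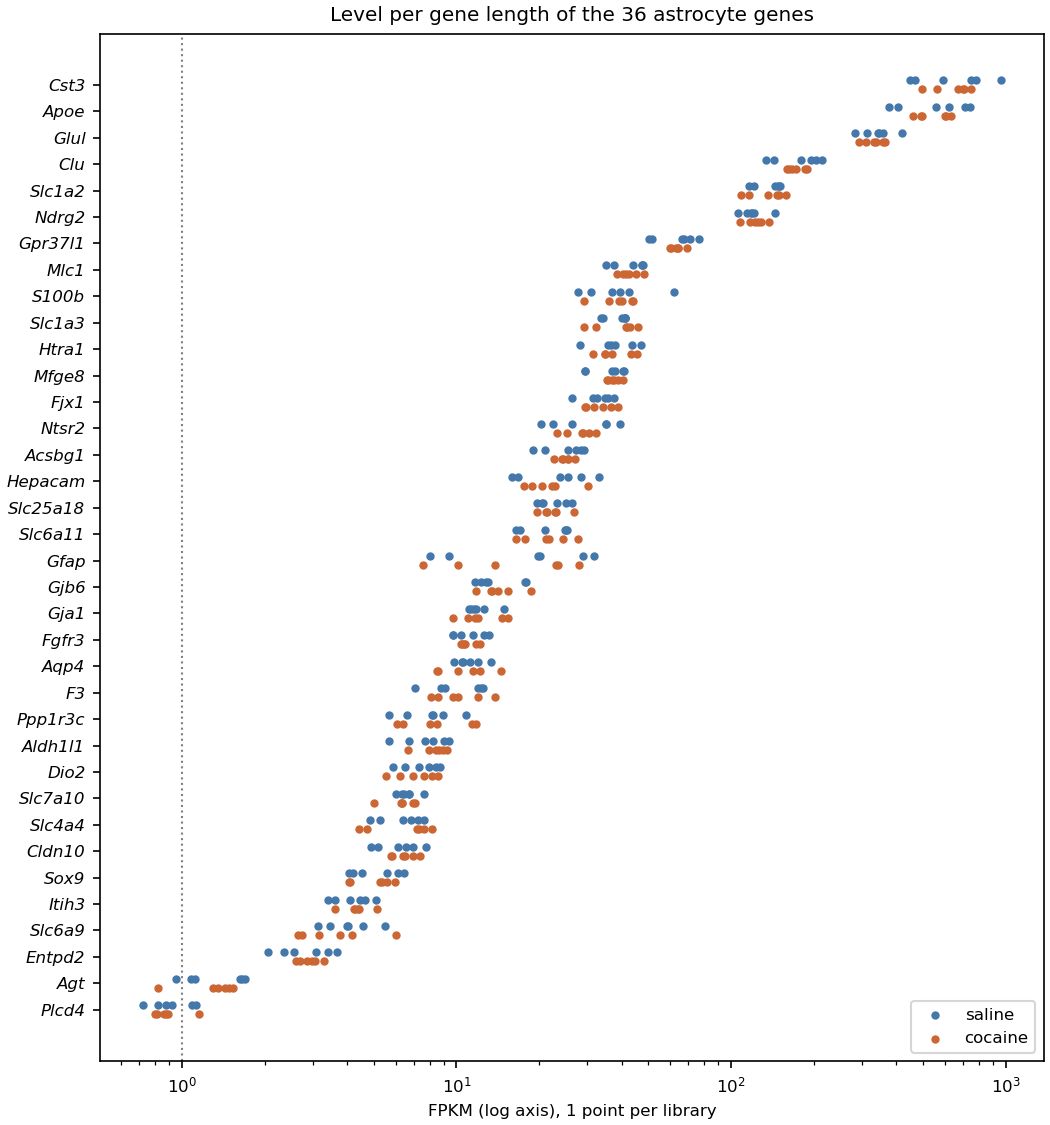
Level per gene length (FPKM, log axis) of the 36 astrocyte genes, with 1 point per library, saline above and cocaine below each gene's line; the dotted line is the minimum mean of 1 FPKM for testing. Cst3, Apoe and Glul stand highest, Agt and Plcd4 lowest, and Gfap shows the widest spread between libraries.

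No astrocyte gene passed a test of the difference between the cocaine and saline groups. In the limma test, adjusted over all 13016 tested genes by the Benjamini-Hochberg method, 0 of the 35 tested genes passed an adjusted p of 0.05, beside 0 percent of all tested genes. None had an unadjusted p under 0.05 either, against 1.14 percent of all tested genes, and in none did every library of a group lie above every library of the other, against 0.0768 percent. The smallest p was 0.371, for Mfge8 (adjusted p = 1.00). edgeR and DESeq2 on the recovered reads gave 0 of 36 genes at an unadjusted p under 0.05, with smallest p of 0.428 and 0.433. Over all genes, 253 of 16057 had such a p by edgeR and 428 of 28827 by DESeq2.

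The differences themselves were small. As log2 of cocaine over saline, 14 genes had a positive and 21 a negative difference, from -0.17 (Slc6a9) to 0.10 (Aldh1l1), with a median of -0.0052 beside 0.0076 over all tested genes. The 95 percent confidence interval of the difference lay within 0.5 either way, a 1.41-fold change, for 32 of the 35 genes; Gfap, Slc6a9 and Ppp1r3c had wider intervals. For all 35 it lay within 1, a doubling or halving. In bulk tissue, fewer astrocytes and less RNA per astrocyte cannot be told apart. Time tag day 0 covers libraries 1, 3 and 5 of each group and day 5 covers libraries 2, 4 and 6. Within day 0 the median difference was -0.09 and within day 5 it was 0.09. In these smaller comparisons 0 of the 35 genes passed the adjusted limma threshold.

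Of the 5 genes of astrocyte identity and cytoskeleton 1 had a positive and 4 a negative difference (median -0.01). Gfap (ENSMUSG00000020932; GRCm38 chromosome 11, 102887336 to 102900912, minus strand) encodes the filament protein that rises in reactive astrocytes. Its lowest, median and highest saline libraries were at 619, 1469 and 2297 normalised reads, and the same for cocaine were 556, 1374 and 2050. The groups covered the same range: saline 3 and saline 4 and cocaine 1 and cocaine 5 were low, and saline 1, saline 5 and cocaine 4 were high. The difference was -0.14 ± 0.38 (log2, SE), with an interval of 0.516-fold to 1.60-fold from the groups alone.

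Aldh1l1 (chromosome 6, 90486427 to 90600203, plus strand) ran from 470 through a median of 632 to 720 normalised reads in saline and from 523 through 685 to 726 in cocaine libraries. The lowest cocaine library stood above the lowest saline library, but the groups overlapped over most of their range. The difference was 0.10 ± 0.12 (log2, SE; limma adjusted p = 1.00). A gene on the opposite strand covers 499 of its 4516 exon bases and a gene on its own strand covers 105, and the strand setting of the counting is not given in the sources used here. Sox9, the transcription factor that specifies astrocytes, differed by -0.02 ± 0.15. S100b, a calcium-binding protein, and Fgfr3, a growth factor receptor of astrocytes, differed by -0.01 ± 0.16 and -0.01 ± 0.09. S100b reached 1576 normalised reads in saline 5, the library with choroid plexus RNA, and at most 1143 elsewhere. Saline 5 was the highest library in 6 of the tested genes: S100b, Cst3, Apoe, Clu, Ntsr2 and Gpr37l1. Saline 1 was the highest in 9.

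All 7 genes of transmitter uptake and amino acid handling had a negative difference, but by small amounts (median -0.03) and with none past the test. The glycine transporter Slc6a9 (ENSMUSG00000028542; chromosome 4, 117834506 to 117875198, plus strand) had the largest. It ran from 292 through a median of 351 to 488 normalised reads in saline and from 238 through 313 to 538 in cocaine libraries. Cocaine 1 and cocaine 5 were lowest and cocaine 4 highest of all 12, so the cocaine group surrounded the saline group, and the difference was -0.17 ± 0.19 (log2, SE; limma adjusted p = 1.00). Of its 5141 exon bases 1555 overlap a gene on the opposite strand. Such overlap touches 9 of the 36 genes, the others being Aldh1l1, Fgfr3, Slc1a2, Glul, Slc7a10, Slc25a18, Plcd4 and Dio2, and their reads could be shared with the partner gene if strand was not used in counting.

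The mitochondrial glutamate carrier Slc25a18 had the least difference of these 7, -0.0028 ± 0.09. It ran from 684 through a median of 743 to 861 normalised reads in saline and from 683 through 743 to 898 in cocaine libraries, so lowest values and medians almost coincided. The glutamate transporters Slc1a2 and Slc1a3, which clear most synaptic glutamate, differed by -0.03 ± 0.13 and -0.0044 ± 0.13. Glul, which turns that glutamate into glutamine, differed by -0.05 ± 0.09, the GABA transporter Slc6a11 by -0.0052 ± 0.16 and Slc7a10, a carrier of serine and other small amino acids, by -0.08 ± 0.10 (log2, SE). For each of these 5 genes the groups overlapped.

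Among the 7 genes of junctions, water and ion handling 4 differences were positive and 3 negative (median 0.0091). Hepacam (ENSMUSG00000046240; chromosome 9, 37367351 to 37386575, plus strand) encodes an adhesion protein that places Mlc1 and connexins at astrocyte contacts. It ran from 969 through a median of 1435 to 1908 normalised reads in saline and from 1030 through 1276 to 1746 in cocaine libraries, and differed by -0.09 ± 0.17 (log2, SE; limma adjusted p = 1.00). Mlc1, its partner at those contacts, differed by -0.01 ± 0.08. Cldn10, a tight-junction protein, ran from 230 through a median of 285 to 347 normalised reads in saline and from 268 through 291 to 334 in cocaine libraries, so the cocaine range lay inside the saline range (difference 0.06 ± 0.11; limma adjusted p = 1.00).

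The gap-junction proteins connexin 43 (Gja1) and connexin 30 (Gjb6) differed by 0.0091 ± 0.11 and 0.03 ± 0.13. The water channel Aqp4 of the end-feet differed by -0.06 ± 0.13, with 906 to 1169 normalised reads over saline and 756 to 1283 over cocaine libraries. The sodium bicarbonate transporter Slc4a4 differed by 0.02 ± 0.18 (log2, SE). Cocaine libraries spread more widely than saline libraries in Aqp4, and the groups overlapped in all 4 genes.

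Of the 4 tested genes of receptors and signalling, 3 differences were positive and 1 negative. Ntsr2, a neurotensin receptor, ran from 1155 through a median of 1655 to 2115 normalised reads in saline and from 1319 through 1563 to 1766 in cocaine libraries, again a narrower range in the cocaine group (difference -0.05 ± 0.14; limma adjusted p = 1.00). Entpd2 ran from 80.2 through a median of 105 to 132 normalised reads in saline and from 96.7 through 109 to 121 in cocaine libraries (difference 0.05 ± 0.13; limma adjusted p = 1.00); a gene on the same strand covers 612 of its 2128 exon bases. The orphan receptor Gpr37l1 and Ndrg2, a protein widely used as an astrocyte marker, differed by 0.0065 ± 0.09 and 0.03 ± 0.08 (log2, SE).

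Metabolism and hormone activation held 3 genes. Ppp1r3c, which directs a phosphatase to glycogen and so favours its synthesis, ran from 264 through a median of 391 to 541 normalised reads in saline and from 285 through 393 to 583 in cocaine libraries. High and low libraries occurred in both groups, and the difference was 0.09 ± 0.20 (log2, SE; limma adjusted p = 1.00). Dio2, the deiodinase that makes active thyroid hormone in the brain, ran from 586 through a median of 801 to 930 in saline and from 557 through 733 to 912 in cocaine libraries (difference -0.06 ± 0.14; limma adjusted p = 1.00). Acsbg1, a fatty acid activating enzyme, differed by 0.0046 ± 0.09.

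Among the 9 secreted and cell-surface proteins 4 differences were positive and 5 negative (median -0.0015). Mfge8, a bridging protein with which phagocytes recognise dying cells, ran from 2510 through a median of 3016 to 3383 normalised reads in saline and from 2892 through 3100 to 3295 in cocaine libraries (difference 0.08 ± 0.08). Clu ran from 8375 through a median of 11201 to 12624 in saline and from 9938 through 10212 to 11259 in cocaine libraries (difference -0.03 ± 0.10; limma adjusted p = 1.00). In Mfge8 and Clu alike the cocaine libraries lay inside the saline range. Apoe and Cst3 differed by -0.02 ± 0.15 and -0.0015 ± 0.16.

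The remaining secreted and surface proteins had small differences too. The protease Htra1 differed by -0.0080 ± 0.11 and Agt by -0.03 ± 0.19. Itih3, a protein that binds hyaluronan in the matrix, differed by 0.04 ± 0.11, and tissue factor (F3), the trigger of blood clotting, by 0.02 ± 0.15. Fjx1, the mouse relative of the fly four-jointed protein, differed by 0.02 ± 0.11 (log2, SE).

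**Figure D2:**
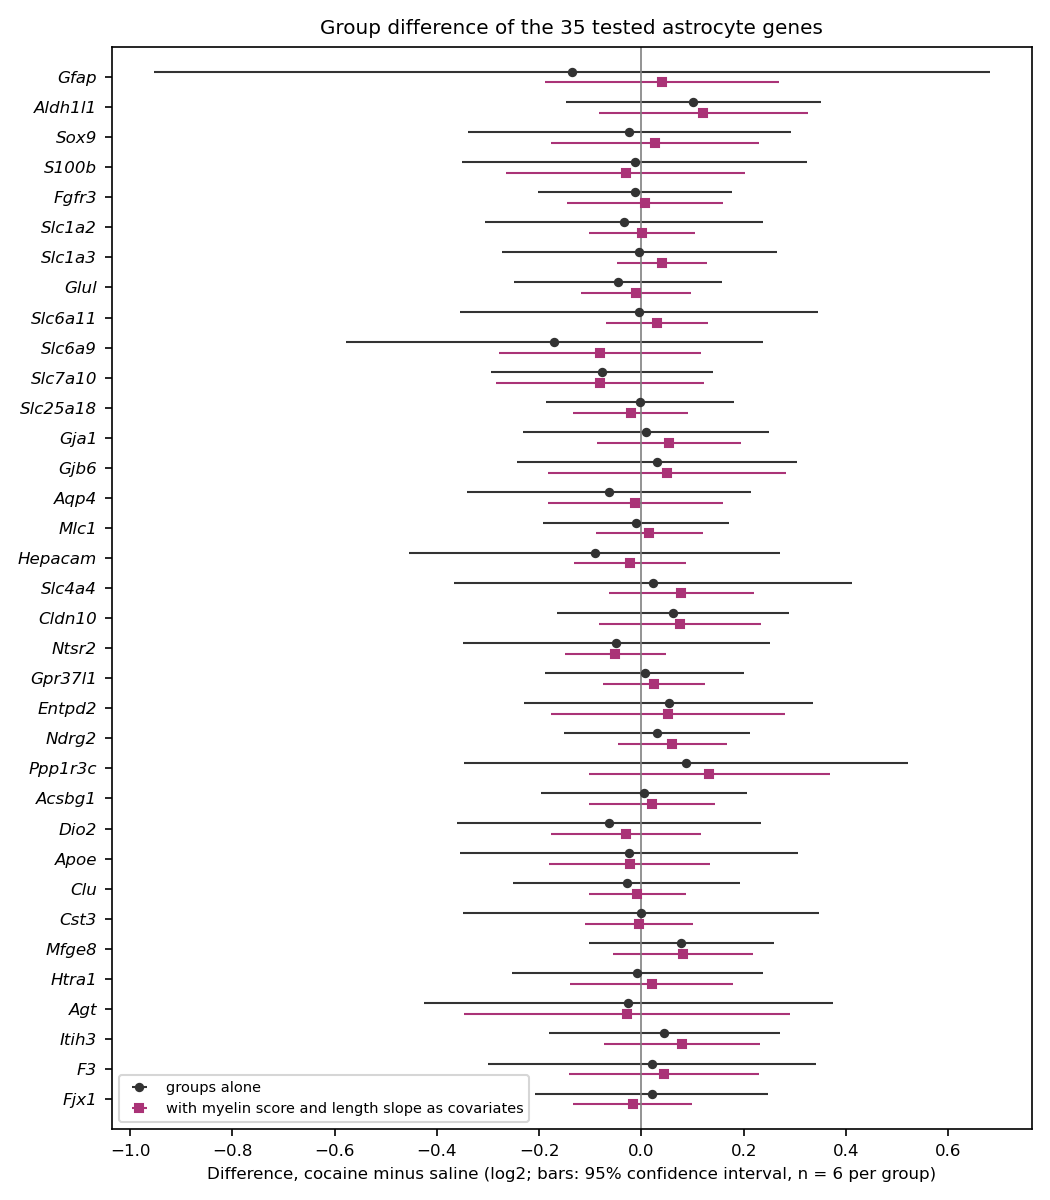
Difference between the cocaine and saline groups (log2, cocaine minus saline) of the 35 tested astrocyte genes with 95% confidence intervals, n = 6 libraries per group, from the groups alone (circles) and with the myelin score and the length slope of each library in the model (squares). Every interval includes 0, and the Gfap interval, the widest, narrows most.

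The astrocyte genes varied between libraries about as much as other genes did. The highest library was a median of 1.58 times the lowest, and the SD of log2 levels over the 12 libraries had a median of 0.213 beside 0.220 over all tested genes. Gfap varied most, with 4.13-fold between its highest and lowest library. The SD within saline exceeded that within cocaine in 25 of the 35 genes (median SD 0.235 and 0.190), beside 55.4 percent of all tested genes (0.221 and 0.214); the difference in spread was not tested.

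A library's median deviation over the 35 genes from their means ran from -0.20 in saline 4 to 0.20 in saline 1, and from -0.10 (cocaine 1) to 0.10 (cocaine 4) in the cocaine group. Saline 1 was above the mean in 30 of the 35 genes and the highest of all 12 libraries in 9; saline 4 was above the mean in 9 and the lowest in 12. The group means of this deviation were 0.01 ± 0.14 over saline and 0.0023 ± 0.08 over cocaine libraries (SD, n = 6). Thus both extremes were saline libraries, in opposite directions.

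**Figure D3:**
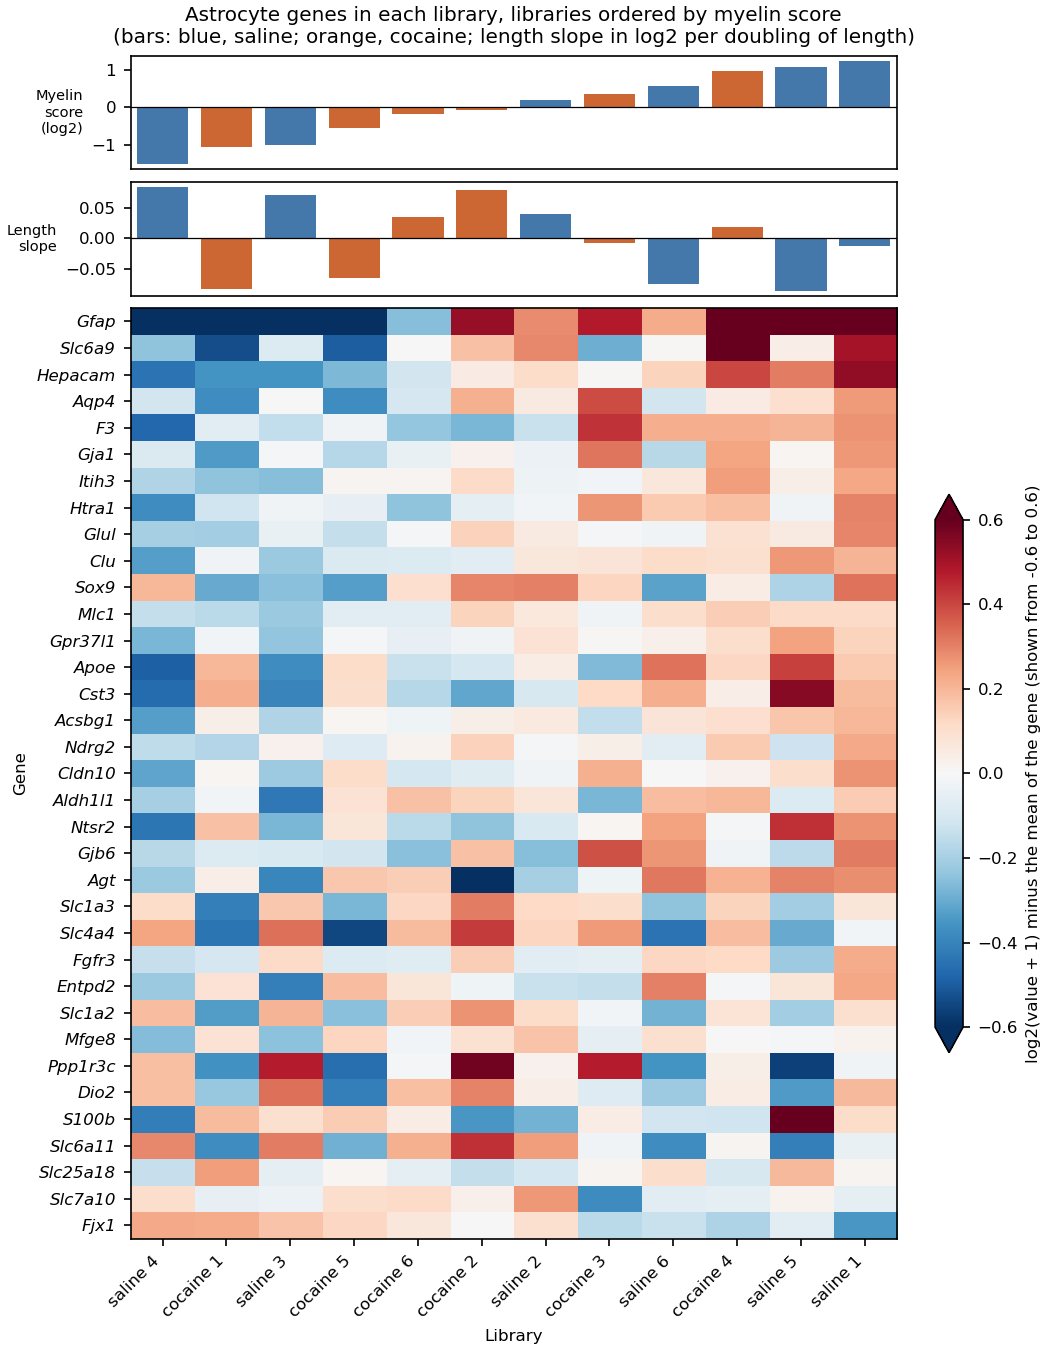
Log2 deviation of the 35 tested astrocyte genes from their means in each of the 12 libraries (colour; values past 0.6 either way share the end colour), libraries ordered by myelin score and genes by their slope on it, with the myelin score and the length slope of each library as bars. Gfap and Hepacam go from low to high with the score, Slc6a9 does so unevenly, and Fjx1 goes the other way. Saline (blue bars) and cocaine (orange bars) libraries mix along the order.

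These deviations were set beside 2 features of the libraries, both chosen after the data had been seen. The myelin score is the mean log2 deviation of 12 genes of myelinating oligodendrocytes, none of them an astrocyte gene of the set; it ran from -1.51 (saline 4) to 1.23 (saline 1), with 0.09 ± 1.12 over saline and -0.09 ± 0.70 over cocaine libraries (SD, n = 6). The length slope is the change of a library's log2 deviation for each doubling of gene length, over tested genes outside the set; it ran from -0.085 (saline 5) to 0.083 (saline 4), with 0.0035 ± 0.07 in saline and -0.0035 ± 0.06 in cocaine libraries. Both features and the group were fitted together by limma across all 13016 genes.

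Of the 35 astrocyte genes 16 were higher where the myelin score was higher (adjusted p under 0.05), 45.7 percent, against 5.36 percent of all tested genes, and 1 was lower, Fjx1, against 1.91 percent. The median slope was 0.11 per log2 unit of the score, beside -0.02 over all tested genes, and 32 of the 35 slopes were above 0, beside 40.4 percent of all. Passing in each of the 12 fits that left out 1 library were 6 genes: Gfap, Hepacam, Slc6a9, Clu and Glul, all higher, and Fjx1. The other 11 were Slc1a3, Gja1, Aqp4, Mlc1, Ntsr2, Gpr37l1, Ndrg2, Cst3, Htra1, Itih3 and F3, each of which failed in at least 2 of those fits.

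Gfap had the steepest slope. It rose by 0.85 ± 0.07 (log2, SE) for each doubling of the myelin score's genes (limma adjusted p = 1.83e-07), from 722 normalised reads in saline 4 to 2297 in saline 1. Hepacam rose by 0.36 ± 0.03 (adjusted p = 7.61e-07), from 969 reads in saline 4 to 1908 in saline 1. Slc6a9 rose by 0.36 ± 0.06 (adjusted p = 0.000564), but unevenly: saline 4 had 292 reads and saline 1 had 488, whereas the lowest and highest libraries were cocaine 1 and cocaine 4.

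Clu and Glul rose less steeply, by 0.15 ± 0.03 each (limma adjusted p = 0.00186 and 0.00515). Fjx1 (ENSMUSG00000075012; chromosome 2, 102449366 to 102452499, minus strand) fell by 0.19 ± 0.03 (adjusted p = 0.00158), from 2130 normalised reads in saline 4 and 2122 in cocaine 1 to 1427 in saline 1. Slc1a2 and Slc6a11 had slopes of 0.06 ± 0.03 and 0.01 ± 0.03 that did not pass the test (adjusted p = 0.272 and 0.845). By role, the genes that rose were 1 of 5 of identity, 3 of 7 of transmitter handling, 4 of 7 of junctions and ions, 3 of 4 of receptors, 0 of 3 of metabolism and 5 of 9 of secreted proteins.

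The number of genes that followed the score depended on which libraries were used. It was 17 with all libraries, 8 without saline 1, cocaine 1 or cocaine 4, 9 without saline 4, 11 without cocaine 5, and 4 without both saline 1 and saline 4, the libraries farthest from the median score. Those 4 were Gfap (0.96, adjusted p = 4.64e-06), Hepacam (0.35, adjusted p = 0.000139), Slc6a9 (0.34, adjusted p = 0.0280) and Fjx1 (-0.18, adjusted p = 0.0326). With the score but not the length slope in the model 4 passed as well, namely Gfap, Hepacam, Clu and Fjx1. Shares over all tested genes are given here only for the fit with all libraries and both features. Whether these smaller counts exceed such a share is therefore not shown. The score did not go with oligodendrocyte genes alone. Choroid plexus and ependymal markers rose with it in 4 of 5 tested genes (median slope 1.81), oligodendrocyte precursor markers in 4 of 7 (0.26), striatal projection neuron markers in 4 of 8 (0.28) and mural and fibroblast markers in 1 of 6 (0.11). Microglia, endothelial, interneuron and red blood cell markers rose in 0 of 11, 0 of 9, 0 of 9 and 0 of 4, and of 10 excitatory neuron markers 0 rose and 1 fell. What lies behind the score was not tested.

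**Figure D4:**
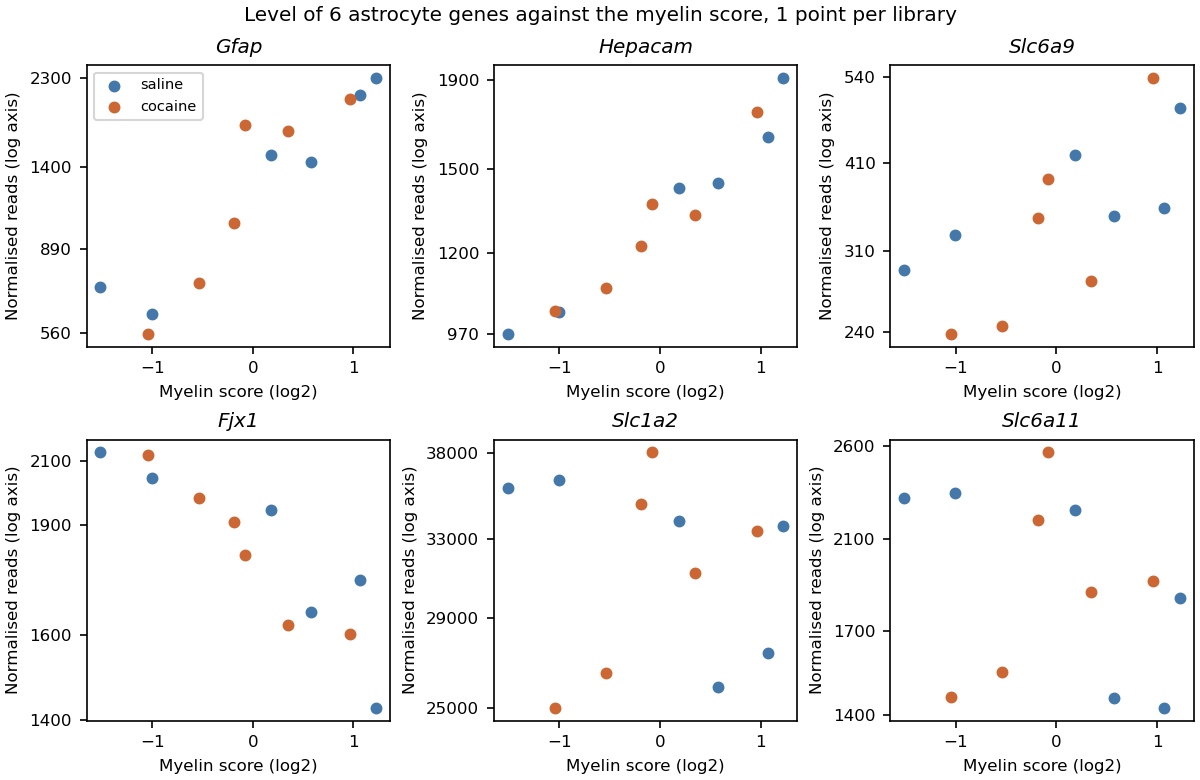
Normalised reads (log axis) of 6 astrocyte genes against the myelin score of the library (log2), 1 point per library, saline blue and cocaine orange. Gfap and Hepacam are higher and Fjx1 is lower at a high score in both groups, whereas Slc1a2 and Slc6a11 show no such order. Slc6a9 rises unevenly: cocaine 3 has 282 normalised reads, below cocaine 6 (344) and cocaine 2 (390), which have lower scores. The plotted levels are not adjusted for the length slope.

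The length slope touched about as many astrocyte genes as other genes. On it 12 of 35 were higher, against 28.1 percent of all tested genes, and 5 were lower, against 24.8 percent (limma adjusted p under 0.05). The genes that were higher were Slc4a4, Ppp1r3c, Slc6a11, Dio2, Slc1a3, Slc1a2, Slc6a9, Gfap, Sox9, Aqp4, Gja1 and Ndrg2. Those that were lower were Cst3, Ntsr2, S100b, Apoe and Slc25a18. A rise of 0.1 in the length slope, somewhat less than the gap between the lowest and highest library, went with 0.54 ± 0.06 in Slc4a4 (limma adjusted p = 2.27e-06), 0.48 ± 0.04 in Slc6a11 (adjusted p = 2.71e-07) and -0.37 ± 0.04 in Cst3 (adjusted p = 5.49e-06).

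Since the slope is defined by gene length, long genes are higher on it and short ones lower by construction, and the astrocyte genes are set beside all genes of like length only to describe them. Among the 6 astrocyte genes longer than 5575 bases 5 were higher and 0 lower, beside 54.3 and 8.83 percent of all genes of that length. Among the 14 of at most 2922 bases 1 was higher and 4 lower, beside 6.20 and 44.0 percent. Ppp1r3c, with 2719 bases, was the short gene that was higher, and Ntsr2, with 3120 bases, was the gene of middle length that was lower. The GABA transporter Slc6a11 shows the size of this variation: it had 2563 normalised reads in cocaine 2 (length slope 0.078), 2336 in saline 3 (0.070), 1459 in cocaine 1 (-0.082) and 1424 in saline 5 (-0.085). What lies behind the length slope was not tested.

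**Figure D5:**
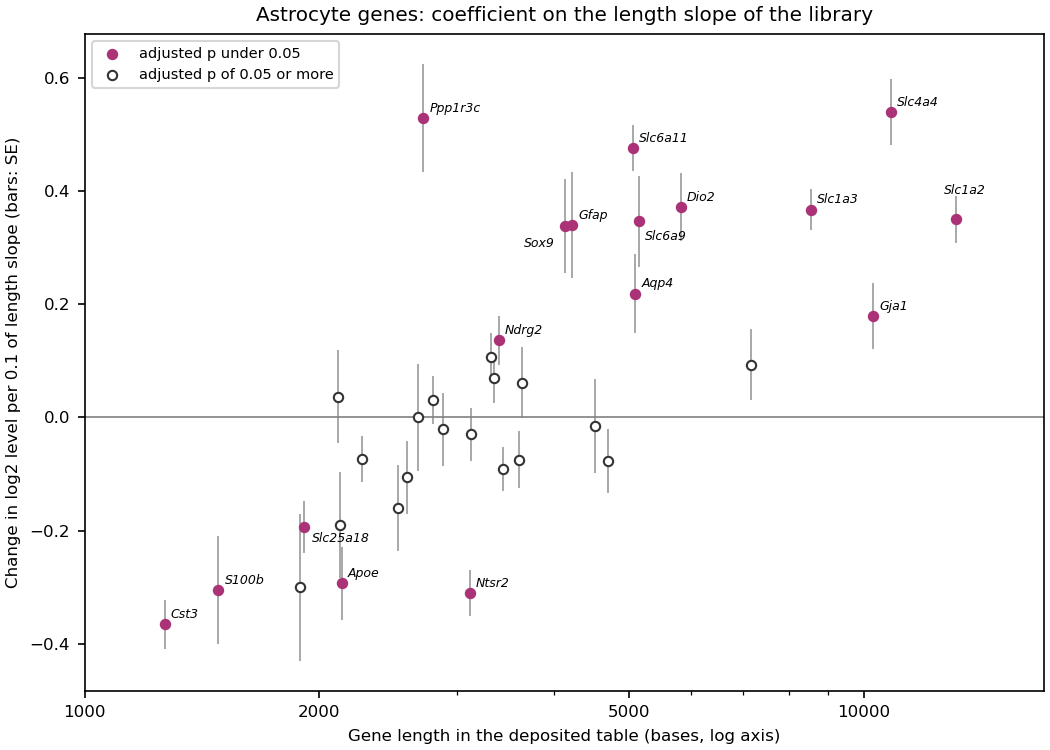
Change in log2 level for a rise of 0.1 in the length slope of the library (bars: SE), against gene length (log axis), for the 35 tested astrocyte genes; filled points passed an adjusted p of 0.05 and are named. Slc4a4, Slc1a3, Slc1a2 and Gja1, all long, are positive, and Cst3, S100b, Slc25a18 and Apoe, all short, are negative. Not every gene follows its length: Ppp1r3c (2719 bases) is positive, Ntsr2 (3120 bases) is negative, and Fgfr3 (7158 bases) did not pass.

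With the myelin score and the length slope in the model the group comparison became sharper. The standard error of the difference was smaller in 35 of 35 astrocyte genes, with a median of 0.069 instead of 0.127; over all tested genes the medians were 0.079 and 0.127. The difference of Gfap became 0.04 ± 0.11 and that of Slc6a9 -0.08 ± 0.09. Of the 7 transmitter genes, Slc1a2 (0.0012 ± 0.05), Slc1a3 (0.04 ± 0.04) and Slc6a11 (0.03 ± 0.05) then had a positive difference (log2, SE). The other 4 had a negative one, from -0.01 ± 0.05 (Glul) to -0.08 ± 0.10 (Slc7a10). The confidence interval of each included 0.

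Still 0 of 35 genes passed the adjusted threshold and 0 had an unadjusted p under 0.05, and 550 of all 13016 genes did by limma, with 0 past the adjusted threshold. Differences ran from -0.08 (Slc7a10) to 0.13 (Ppp1r3c), 21 positive and 14 negative, with a median of 0.02. All 35 confidence intervals then lay within 0.5 either way, Gfap included. The intervals of this model take the 2 features as given and do not cover the choice of them after the data were seen.

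Other genes known from astrocytes gave the same picture of the groups. Of 40 such genes 38 were tested: 14 had a positive and 24 a negative difference (median -0.03), 0 passed, and 0 had an unadjusted p under 0.05 by limma. The fatty acid transporter Slc27a1 averaged 1473 ± 196 normalised reads in the saline and 1320 ± 113 in the cocaine group (SD, n = 6; log2 -0.15 ± 0.10 SE). Megf10, a receptor with which astrocytes engulf synapses, had 422 ± 124 and 348 ± 143 (log2 -0.33 ± 0.26 SE), and rose by 0.55 ± 0.07 with the myelin score (limma adjusted p = 3.27e-05). In all, 10 of the 38 rose with the score and 0 fell. Without saline 5 the median of these genes was 0.0079, and that of the astrocyte genes of the set was 0.0091.

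Genes known to rise in reactive astrocytes were mostly too low to test: 11 of 33 were tested, and 6 of the 33 were at 0 in at least 1 library. Of the 11, 5 differences were positive and 6 negative (median -0.0019), and 0 had an unadjusted p under 0.05 by limma. Fkbp5, a chaperone of the glucocorticoid receptor that stress hormones induce, averaged 519 ± 82.0 normalised reads in the saline and 445 ± 40.0 in the cocaine group (SD, n = 6; log2 -0.21 ± 0.11 SE; limma adjusted p = 1.00). Serpina3n, a protease inhibitor often used to mark reactive astrocytes, had 222 ± 26.3 and 246 ± 41.4 (log2 0.14 ± 0.12 SE). Neither gene passed the test.

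The partners of the astrocyte genes were looked at by pathway, and 0 genes passed the adjusted limma threshold in any of them. On the neuronal side of the glutamate-glutamine cycle 9 of 13 tested genes had a positive and 4 a negative difference (median 0.0058). Slc38a3, a glutamine transporter, had 926 ± 84.2 and 852 ± 49.1 normalised reads in saline and cocaine libraries (log2 -0.12 ± 0.08 SE), and Slc17a6, which loads glutamate into synaptic vesicles, had 235 ± 25.2 and 273 ± 51.0 (log2 0.20 ± 0.13 SE). In glycogen and lactate metabolism 10 of 15 were positive and 5 negative (median 0.03).

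Ppp1r3d, a relative of Ppp1r3c that also directs a phosphatase to glycogen, averaged 135 ± 20.8 normalised reads in the saline and 167 ± 23.4 in the cocaine group (SD, n = 6; log2 0.31 ± 0.12 SE; limma adjusted p = 1.00). It was the only gene of these pathway lists with an unadjusted p under 0.05. Ldha, which makes lactate, had 7778 ± 508 and 8431 ± 844 (log2 0.11 ± 0.08 SE). The list of lipoprotein and cholesterol export had 2 positive and 11 negative differences of 13 (median -0.05). Lpl, a lipase that frees fatty acids from lipoproteins, had the smallest p of this list, with 214 ± 28.1 and 246 ± 20.8 normalised reads (log2 0.20 ± 0.10 SE).

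Partners of thyroid hormone, angiotensin and neurotensin signalling had 3 positive and 7 negative differences among 10 tested genes (median -0.02). Ace, which makes active angiotensin from the product of Agt, had 167 ± 72.4 and 141 ± 19.8 normalised reads (log2 -0.15 ± 0.23 SE). Thrb, a thyroid hormone receptor, had 1454 ± 289 and 1517 ± 199 (log2 0.07 ± 0.13 SE). Neither passed the limma test (adjusted p = 1.00 for both).

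Markers of the other cells in the tissue were read from the same fit, and again 0 passed the adjusted limma threshold. Myelinating oligodendrocyte markers were negative in 12 of 12 (median -0.19) and oligodendrocyte precursor markers in 7 of 7 tested (-0.13), both with overlapping groups and 0 genes at an unadjusted p under 0.05. Microglia markers had 2 positive and 9 negative differences (-0.07), endothelial markers 3 and 6 (-0.09), and mural and fibroblast markers 1 and 5 (-0.03). Excitatory neuron markers had 7 and 3 (0.03), interneuron markers 4 and 5 (-0.01) and striatal projection neuron markers 2 and 6 (-0.06).

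Larger medians stood in 2 lists. Red blood cell genes were positive in 4 of 4 tested (median 0.50), 1 of them with an unadjusted p under 0.05 by limma and 0 past the adjusted threshold. Choroid plexus and ependymal markers had 1 positive and 4 negative differences (median -0.52), of which that of Ttr, -2.66, rests on saline 5. What these cells contribute to the astrocyte genes was not tested; without saline 5, 0 of the 35 astrocyte genes passed the test, as with it.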

How the data were processed

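The authors deposited 1 table with a value per gene and library, gene lengths and, per the file headers, a log2 fold change, p-values and adjusted p-values of their own comparison. The authors scaled each library's read counts by 1 size factor, which gives the deposited signal: 100 percent of values were whole numbers of reads (tolerance 0.01 read) once that factor was undone, and these recovered reads were used for count tests. Despite the table's name they are not FPKM, since gene length does not enter. The submitters' processing notes name HISAT2 2.0.5; no counter, strand setting or annotation is given in the sources used here, and hg38 in the labels does not match the mouse gene IDs. GENCODE M21 (GRCm38, the build of all coordinates) held 28825 of 28842 IDs, 28061 with identical start and end. The authors' deposited table calls 3 genes at its adjusted p, 0 of them among the 36 (smallest p 0.433).

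Groups came from the treatment labels. limma 3.58.1 (R 4.3.3, empirical Bayes with variance trend, two-sided) was fitted to log2(value + 1) of the 13016 genes whose mean FPKM, computed here, reached 1, with no covariates; this scale understates changes of low genes. Adjusted p-values are Benjamini-Hochberg over all tested genes, threshold 0.05. edgeR 4.0.16 and DESeq2 1.42.0 were run on recovered reads as alternatives, and the fits were tested on simulated data. A count of 0 in the reads allows up to 3 reads per library, counting error only. No pair of libraries agreed within sampling noise (smallest chi-square per degree of freedom 5.42).

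Members and gene lists were chosen with earlier results of these data known. The myelin score and the length slope were added as covariates after the data had been seen. Values in both groups are given for the gene of smallest p, largest positive and largest negative difference in each of 6 role groups, and for the 2 genes of smallest p in each astrocyte, reactive and pathway list; 1 of these genes is not reported here. No sequence is shown, since no comparison rests on one.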

Additional observations from a re-analysis of the deposited data

Results flagged for a closer look

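In 4 of 72 groups of 6 libraries, 1 library lay so far from its nearest neighbour that the gap, as a share of the group's range, passed Dixon's 95 percent limit; chance flags about 1 in 20 groups. All 4 were cocaine libraries. Slc25a18 had 898 normalised reads in cocaine 1, with the nearest library at 763. Gpr37l1 had 2714 in cocaine 4, with the nearest at 2534. Plcd4 had 141 in cocaine 4, with the nearest at 113. Agt, with few reads in every library, had 28.2 in cocaine 2, with the nearest at 42.8.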

How the results depend on the processing

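Counts of 0 astrocyte genes past the threshold held under every alternative run: pseudocounts 0.5 and 4, other filters, TMM and upper-quartile scaling, edgeR, DESeq2, variance models, library weights, the replicate block, the time tag, cell-type scores, and leaving out each library (0 to 0). Over all genes the count was 0, but 3 with DESeq2 and 1 among libraries of time tag 0 alone. Leaving out each library gave 0 to 0 genes over the whole table, and medians of -0.04 to 0.03 (astrocyte genes), -0.08 to 0.01 (other astrocyte genes) and -0.07 to 0.05 (reactive astrocyte genes). Each time tag holds only part of the libraries of each group. Within time tags 0 and 5 the median of the astrocyte genes was -0.09 and 0.09, and Gfap differed by -0.69 and 0.42. Slc6a9 differed by -0.59 and 0.25, Glul by -0.22 and 0.13, and Ndrg2 by -0.12 and 0.18. None of these genes passed the threshold. Signs of single genes are not stable: 186 of 1116 values over the alternatives had the other sign, none past the threshold. The 17 genes that followed the myelin score became 4 with the score alone, 4 without the 2 farthest libraries and 8 to 20 without 1 library. The 17 that followed the length slope became 9 with the replicate number as a block and 13 to 20 without 1 library. The cause of these shifts was not tested. The fits with the score alone and with the block used all libraries. Shares over all tested genes are not given here for these alternatives. Same-numbered libraries correlated by -0.40 to 0.43 in their deviations, and 2 of 6 correlated best with their own number. The numbers were therefore not treated as pairs in the main fit. This check cannot exclude pairing, since the deviations also carry library-wide differences such as the myelin score and the length slope. With the replicate number as a block the median of the astrocyte genes was -0.0052, 0 genes passed, and 15 followed the myelin score.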
